A study of Mus musculus with 38 samples.

Results

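Epiblast stem cells that carried a Klf4 transgene (kEpiSC, 2 libraries) were compared with epiblast stem cells without it (EpiSC, 4 libraries) by RNA sequencing, while both were still in the primed state. These 6 of the 38 libraries of the series were taken by their titles. The kEpiSC libraries carry a label in the singular, a stable line, although the methods speak of lines; such cells were made by infecting EpiSC with a lentivirus that links Klf4 to a neomycin resistance gene and by selection in G418. The study's text places Klf4 under a CAG promoter and gives the line an Oct4-GFP reporter as well. EpiSC, per the methods, were derived from post-implantation embryos of 129 females and males carrying the same kind of reporter, and no EpiSC carrying an empty vector is described in the sources used here. The growth notes in the labels describe feeder-free primed medium with Activin A and bFGF, and the methods also describe EpiSC kept on feeders. Whether the replicates of a group were separate cultures is not in the labels, so p reflects only how far these libraries varied, which may be technical. The fit also held 5 libraries of naive embryonic stem cells (ESC) and 2 of the induced pluripotent cells (kiPSC) that kEpiSC later gave, and their values are printed where they set a scale.

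Pluripotent mouse cells are kept in a naive state, close to the pre-implantation epiblast, or in a primed state, close to the epiblast once the embryo has implanted. Both express Oct4 (Pou5f1) and Sox2. Naive cells add a circuit of factors such as Esrrb, Tfcp2l1, Klf2, Klf4 and Zfp42, while primed cells depend on Activin or Nodal and FGF signals and express Fgf5 and Otx2. Klf4 is a zinc finger factor of the Kruppel-like family that belongs to the naive circuit and can help to convert primed cells once they are moved to naive medium. The comparison here asks which transcripts differed in the line before any such change of medium.

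The depth differed between the groups. The 2 kEpiSC libraries held 15944950 and 15754521 estimated counts, against 2164711 to 2868808 in the 4 EpiSC libraries. EpiSC replicate 1 stood apart from the other EpiSC libraries. The chi-square per degree of freedom over genes was 14.9 to 18.3 for the pairs with replicate 1. It was 4.30 to 6.73 for the pairs among replicates 2, 3 and 4. The kEpiSC pair had 6.43, but this measure grows with depth. At 6.00 times the mean depth of EpiSC, the kEpiSC value cannot be set against those of EpiSC. Markers of the primed state were present in all 6 libraries. The summed level of 10 primed markers was 1912 and 1775 CPM (counts per 1e6 of the normalised library) in kEpiSC and ran from 833 to 2899 CPM in EpiSC, while 10 naive markers summed to 18.1 and 24.7 CPM in kEpiSC and to 9.05 to 91.7 CPM in EpiSC, against 3967 to 4968 CPM in ESC. Of these naive markers, Nr0b1, Prdm14, Tcl1 and Dppa3 had 0 counts in both groups, which allows up to 0.0961 CPM over the 2 kEpiSC libraries and 0.282 CPM over the 4 EpiSC libraries at 3 counts, for counting error only.

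Klf4 itself was high in both libraries of the transgenic line. It stood at 69.5 and 98.1 CPM in kEpiSC, against 0.931, 2.17, 2.39 and 1.08 CPM in EpiSC. Every kEpiSC library was thus above every EpiSC library. The log2 fold change was 5.62 ± 0.38 (SE), or 49.1-fold, with an edgeR adjusted p of 1.5e-05. Set against naive cells the line stayed lower. kEpiSC averaged 83.8 ± 20.2 CPM (SD, n = 2) and ESC 247 ± 80.3 CPM (SD, n = 5), a log2 fold change of -1.56 with an edgeR adjusted p of 0.00084 in a comparison that called 44.8% of all genes. On the length-corrected TPM scale the gap was smaller, at 83.9 TPM in kEpiSC and 161.8 TPM in ESC, and limma on log2(TPM + 1) gave -0.91 (adjusted p 0.042). The libraries also differed in the median of gene length minus effective length. It was 170.7 and 170.8 in kEpiSC, 73.5 in ESC replicates 1 to 4 and 176.3 in replicate 5. The part of this difference in the gap was not tested. The kiPSC libraries held 288 and 266 CPM. Reads of the transgene and of the endogenous gene on chromosome 4 (mm10, 55527143 to 55532466, minus strand) share one count here, so the values do not say which of them was transcribed.

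**Figure D1:**
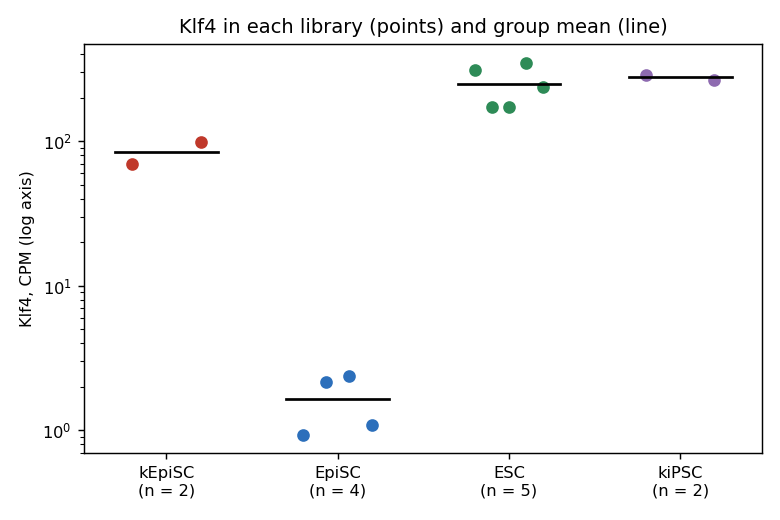
Klf4 in CPM on a log axis, with 1 point per library and a line at the mean of each group. The 2 kEpiSC points lie at 69.5 and 98.1 CPM, above the 4 EpiSC points (0.931 to 2.39 CPM) and below the ESC mean of 247 CPM.

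Per transcript length, Klf4 became the leading member of its family. On the TPM scale, which is corrected for transcript length, at a mean of 83.9 TPM in kEpiSC it ranked 1 of 26 Kruppel-like and SP genes, and at 1.34 TPM in EpiSC it ranked 21. The next members in kEpiSC were Klf13 at 66.2 TPM, Sp1 at 64.8 TPM and Klf9 at 52.9 TPM. Klf4 was first in each kEpiSC library, at 65.2 TPM in replicate 1, where Klf13 had 62.7 and Sp1 63.3 TPM, and at 102.6 TPM in replicate 2, where they had 69.8 and 66.2 TPM. The lead was thus narrow in replicate 1, and no test was run on this order.

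Across all genes few differences passed the edgeR test of 2 libraries against 4. Of 13923 genes tested, 176 (1.26%) had an adjusted p under 0.05, the threshold for a call. Of the calls 131 were higher in kEpiSC (0.941% of genes tested) and 45 lower (0.323%), and 154 of the 176 changed at least 2-fold. The median log2 fold change over all genes tested was -0.01. The libraries did not overlap for 31.0% of genes tested. DESeq2 called 599 genes, and the fit of all 38 libraries called 1013. The small count of calls is thus no measure of how alike the groups were. Calls depended on single libraries: leaving out 1 library at a time gave 37 to 333 calls, and 35 genes, 32 higher and 3 lower, were called with all libraries and in each of the 6 reduced fits (0.251% of genes tested). With EpiSC replicate 1 left out 333 genes were called (1.75% higher and 0.657% lower), and with it as the only EpiSC library 327 were (1.22% higher and 1.01% lower). Of the 176 genes, 56 were called in the same direction in both of those fits (45 higher and 11 lower). In the fit with EpiSC replicate 1 only, the median of genes measured in the primed groups was 0.12 on the log2 scale, and values from that fit are relative to this shift.

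The naive list held 28 genes, all tested, of which 4 were higher in kEpiSC, none was lower and 24 did not pass. The 4 are Klf4, which the line carries as a transgene, Esrrb, Fgf4 and Tet2. Of all genes tested, 0.941% were called higher and 0.323% lower. Klf4 is on the list of calls by design, so only Esrrb, Fgf4 and Tet2 can be set beside these shares. The median of the 24 members with counts in either primed group was 0.09 on the log2 scale, beside -0.01 for all genes measured there. Without EpiSC replicate 1 the list had 5 calls higher and 1 lower, and with it as the only EpiSC library 4 and 2. The libraries did not overlap for 7 of the 24 in the higher direction, Klf4 among them, and for 1 in the lower. These counts stand beside 18% and 12.9% of all genes tested. In bulk RNA, fewer cells of a type and less RNA per cell cannot be told apart.

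Fgf4, the FGF ligand that naive cells and the early epiblast secrete, had 51.8 and 60.2 CPM in kEpiSC, against 5.58, 10.9, 19.8 and 12.99 CPM in EpiSC. The groups did not overlap, and the difference of 2.16 ± 0.34 on the log2 scale (edgeR adjusted p 0.0061) was called in 5 of the 6 reduced fits. Its level in ESC was 204 to 380 CPM, so kEpiSC lay between EpiSC and ESC. Tet2, an enzyme that oxidises 5-methylcytosine, had 27.8 and 30.9 CPM in kEpiSC, against 3.72, 13.03, 7.17 and 14.8 CPM in EpiSC (log2 fold change 1.57 ± 0.35, edgeR adjusted p 0.045, called in 2 reduced fits).

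Esrrb, an orphan nuclear receptor of the naive circuit, rose only within the lowest part of its range. It had 4.66 and 6.52 CPM in kEpiSC, against 2.79, 1.45, 2.05 and 1.44 CPM in EpiSC, while ESC held 503 to 738 CPM. The log2 fold change was 1.55 ± 0.32 with an edgeR adjusted p of 0.031, and the call was kept in 1 of the 6 reduced fits. The kEpiSC level was thus above EpiSC and far under any ESC library.

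Other naive factors did not pass. Klf2, a close relative of Klf4, had 3.64 and 4.71 CPM in kEpiSC and 0.465 to 2.89 CPM in EpiSC (log2 fold change 1.15 ± 0.56), beside 169 to 457 CPM in ESC. Klf5 had 13.9 and 13.6 CPM in kEpiSC and 4.19 to 18.1 CPM in EpiSC. Tfcp2l1, a target of LIF and STAT3 signalling in naive cells, had 7.98 and 10.4 CPM in kEpiSC and 4.34 to 8.20 CPM in EpiSC, beside at least 723 CPM in ESC. These 3 genes lay near the EpiSC range in both kEpiSC libraries.

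Zfp42 and Dppa5a, markers used to tell naive from primed cells, were decided by EpiSC replicate 1. Zfp42 had 0.830 and 1.81 CPM in kEpiSC, against 6.98 CPM in EpiSC replicate 1 and 0 in the other 3. Dppa5a had 0.958 and 1.23 CPM in kEpiSC, against 74.9 CPM in EpiSC replicate 1 and at most 0.362 CPM in the others. Without that library Zfp42 had 41 counts in kEpiSC and 0 in EpiSC, at least 3.71-fold higher with 3 counts set over the EpiSC group, at an edgeR adjusted p of 0.098. Dppa5a then had 34 counts in kEpiSC and 1 in EpiSC, a ratio of 9.24 with a 95% exact interval of 1.55 to 376 for counting error only, at an edgeR adjusted p of 0.084.

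Nanog was the member of the naive list whose libraries did not overlap in the lower direction. It had 147 and 95.8 CPM in kEpiSC, against 247, 291, 201 and 240 CPM in EpiSC, a log2 fold change of -1.01 ± 0.24 with an edgeR adjusted p of 0.066. ESC held 679 to 951 CPM. Nanog thus missed the threshold here, and DESeq2 and limma on log2(TPM + 1) did call it.

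**Figure D2:**
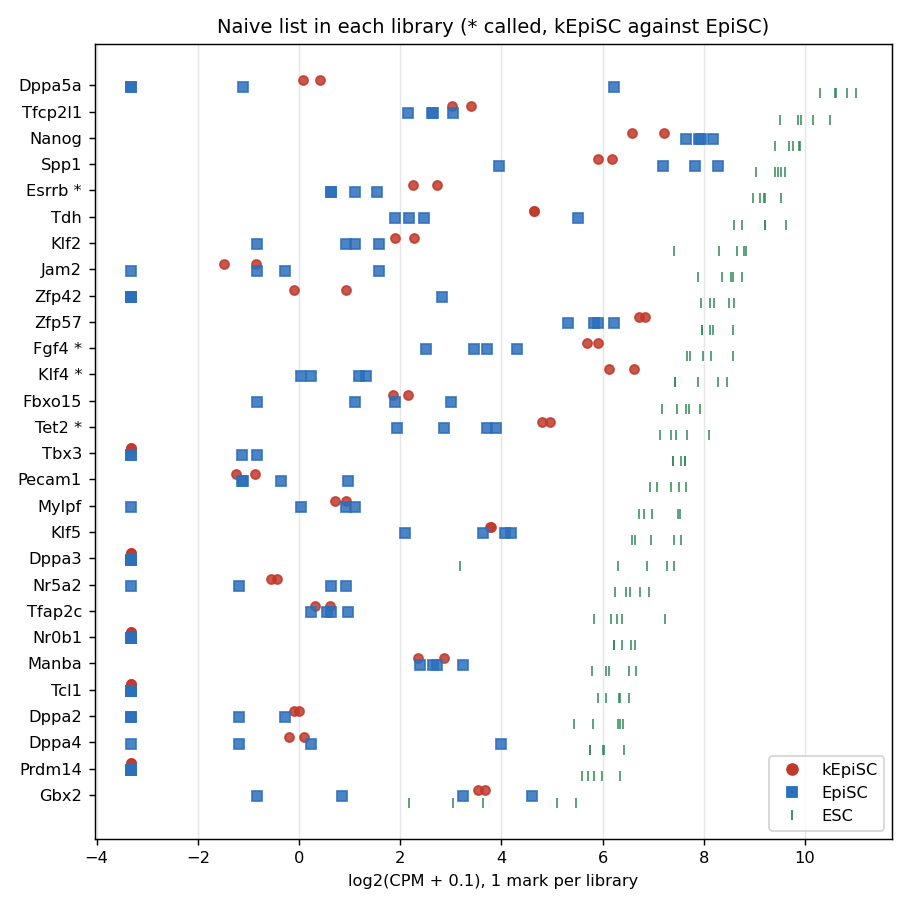
Levels of the 28 naive list genes as log2(CPM + 0.1), with 1 mark per library for kEpiSC, EpiSC and ESC, ordered by the ESC mean. Stars mark the 4 called genes: Klf4, Esrrb, Fgf4 and Tet2, whose kEpiSC marks all lie above the EpiSC marks.

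None of the 27 genes of the primed list was called. The median was 0.35 on the log2 scale, and 15 were positive and 12 negative. For 8 members in the higher and 2 in the lower direction the libraries did not overlap, beside 18% and 12.9% of all genes tested. Without EpiSC replicate 1 a pair of members was called higher and none lower, and with replicate 1 as the only EpiSC library 2 were called in each direction. Fgf5, the ligand that marks the primed epiblast, had 83.6 and 57.9 CPM in kEpiSC and 245, 101, 154 and 79.0 CPM in EpiSC (log2 fold change -1.03 ± 0.42, edgeR adjusted p 0.31). Otx2, a homeobox factor of the primed epiblast, had 90.7 and 109 CPM in kEpiSC and 39.0 to 124 CPM in EpiSC. Pou3f1, also known as Oct6, had 181 and 156 CPM in kEpiSC and 34.9 to 85.4 CPM in EpiSC, with an edgeR adjusted p of 0.082. Fgf8 had 13.5 and 5.36 CPM in kEpiSC and 14.7 to 137 CPM in EpiSC, with an edgeR adjusted p of 0.070.

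Core pluripotency genes had the same count: 0 of 11 called, with a median of 0.16. Pou5f1 had 1401 and 1447 CPM in kEpiSC and 1005 to 1667 CPM in EpiSC. Sox2 had 89.8 and 76.5 CPM in kEpiSC, against 6.98 CPM in EpiSC replicate 1 and 42.0 to 71.8 CPM in replicates 2, 3 and 4. For Sox2 the log2 fold change was 0.79 ± 0.50 with all libraries and 3.62 against replicate 1 only, where it was called. Utf1, a chromatin-bound factor of pluripotent cells, had 590 and 635 CPM in kEpiSC and 186 to 321 CPM in EpiSC, with an edgeR adjusted p of 0.31. The libraries of the groups did not overlap for Utf1, as for 31.0% of all genes tested in either direction.

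Of the Kruppel-like and SP family, 21 of 26 genes passed the filter on low counts. Among these, 2 were called higher and none lower, beside 0.941% and 0.323% of all genes tested. Klf4 is among the 2 by design, as the line carries it, so only the other call can be set beside those shares. The counts were 2 and 0 without EpiSC replicate 1, and 3 and 1 with it as the only EpiSC library. Besides Klf4 this was Klf9, a factor induced by steroid and thyroid hormones in other tissues. Klf9 had 95.3 and 99.4 CPM in kEpiSC, against 23.7, 21.0, 35.9 and 26.0 CPM in EpiSC. The groups were well apart, with a log2 fold change of 1.86 ± 0.21 and an edgeR adjusted p of 0.00055, called in all 6 reduced fits. Its ESC level was 90.3 to 139 CPM, which kEpiSC reached. Sp8 had 1.21 and 0.387 CPM in kEpiSC and 1.02 to 25.6 CPM in EpiSC, with overlap and an edgeR adjusted p of 0.070.

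Klf4 binds GC-rich sites, and the RefSeq promoters (GRCm38.p6, 250 bases before to 50 after each start) of Klf4, Esrrb, Fgf4, Tet2 and Klf9 were searched for the Kruppel-like motif GGGNGTGG on both strands. None of their 6 windows held it, beside 17.6% of 32851 windows in all. It was present in 23.6% of the windows of genes called higher, in 18.2% of those called lower and in 23.1% of those of all genes tested, with 89 of 131, 27 of 45 and 10537 of 13923 genes matched by symbol. A second search, chosen after the first, was for the GC box GGGCGG that SP and Kruppel-like factors share. It was in 3 of the 6 windows, and in 63.6%, 69.7% and 62.1% of the same sets, beside 35.7% of all windows. The 250 bases before the start are printed 5′ to 3′ for endogenous Klf4 and for Fgf4, with GC boxes of either strand in capitals. Fgf4 is the called naive gene with the next largest change, and whether endogenous Klf4 was raised cannot be told from the shared count. Klf4 lies on the minus strand, chr4:55532476-55532725, with 4 matches between 217 and 101 bases before the start, and Fgf4 on the plus strand, chr7:144861136-144861385, with 2 matches that begin 214 and 188 bases before it.
Klf4: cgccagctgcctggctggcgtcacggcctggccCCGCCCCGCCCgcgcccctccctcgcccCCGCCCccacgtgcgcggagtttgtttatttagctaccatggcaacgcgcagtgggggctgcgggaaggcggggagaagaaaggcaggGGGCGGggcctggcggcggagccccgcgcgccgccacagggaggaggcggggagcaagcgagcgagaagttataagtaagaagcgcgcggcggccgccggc
Fgf4: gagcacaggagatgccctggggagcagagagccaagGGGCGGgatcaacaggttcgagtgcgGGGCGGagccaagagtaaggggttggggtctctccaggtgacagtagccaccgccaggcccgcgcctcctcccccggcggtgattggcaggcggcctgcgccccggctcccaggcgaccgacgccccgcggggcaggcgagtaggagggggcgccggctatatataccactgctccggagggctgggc

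Genes of the Nodal and Activin pathway were lower where they were called. Nodal is a ligand of the TGF-beta family that acts through Activin receptors and Smad2 and Smad3, and its targets include its own gene and a set of inhibitors. Of 22 members tested, 3 fell, none rose and 19 did not pass, with a median of 0.00. Without EpiSC replicate 1 there were 4 lower calls, and with it as the only EpiSC library 2. Nodal had 42.2 and 26.8 CPM in kEpiSC, against 195, 120, 71.7 and 95.2 CPM in EpiSC (log2 fold change -1.80 ± 0.35, edgeR adjusted p 0.024, called in 3 reduced fits). Both kEpiSC libraries were below all EpiSC libraries, and below the 63.6 to 105 CPM of ESC.

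The other called members are feedback inhibitors of the same pathway. Pmepa1, a membrane protein that sequesters Smad2 and Smad3, had 23.9 and 13.7 CPM in kEpiSC, against 61.9, 70.2, 58.0 and 71.1 CPM in EpiSC (log2 fold change -1.79 ± 0.28, edgeR adjusted p 0.0056). Smad7, the inhibitory Smad, had 22.2 and 15.6 CPM in kEpiSC, against 39.1, 49.9, 57.02 and 40.8 CPM in EpiSC (log2 fold change -1.31 ± 0.22, edgeR adjusted p 0.0095). Each was called in 5 of the 6 reduced fits, and neither passed against EpiSC replicate 1 only, at edgeR adjusted p values of 0.065 and 0.098. Lefty1, a secreted Nodal antagonist, had 112 and 45.8 CPM in kEpiSC and 208, 1038, 217 and 678 CPM in EpiSC, at an edgeR adjusted p of 0.063 that became 0.023 without replicate 1. The receptor and signal transducer gave no call: Smad2 had 42.6 and 41.2 CPM in kEpiSC and 35.8 to 54.5 CPM in EpiSC, and the receptor Acvr1b had 65.5 and 65.4 CPM in kEpiSC and 37.9 to 55.0 CPM in EpiSC.

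Neighbouring pathways had fewer calls. In the list of FGF and ERK feedback genes Fgf4 was the single call among 22, beside 0.941% of all genes tested called higher. The feedback phosphatase Dusp6 had 252 and 302 CPM in kEpiSC and 169 to 455 CPM in EpiSC. No member was called among 19 BMP, 24 WNT, 11 LIF and STAT3, and 18 AP-1 and JNK genes, with medians of -0.11, -0.33, 0.10 and -0.12. Without EpiSC replicate 1, 1 BMP gene was called lower and 1 LIF and STAT3 gene higher. Jun, the AP-1 subunit that the study is about, had 54.0 and 67.0 CPM in kEpiSC and 25.1, 63.0, 48.8 and 39.7 CPM in EpiSC (log2 fold change 0.45 ± 0.58). Pim1, a kinase gene induced by STAT3, had 168 and 188 CPM in kEpiSC, against 9.77 CPM in EpiSC replicate 1 and 63.3 to 75.8 CPM in the other 3. Pim1 was not called with all libraries (edgeR adjusted p 0.078), and it was called both without replicate 1 (0.00024) and against replicate 1 only (5.3e-05).

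TET enzymes oxidise methylated cytosine. Of 12 genes of the DNA methylation machinery, Tet1 and Tet2 rose and 10 did not pass, beside 0.941% of all genes tested called higher. Tet1 had 263 and 270 CPM in kEpiSC, against 108, 120, 145 and 105 CPM in EpiSC (log2 fold change 1.15 ± 0.23, edgeR adjusted p 0.030, called in 2 reduced fits), and ESC held 336 to 677 CPM. The kEpiSC libraries were close to each other and above all EpiSC libraries. Dnmt1 had 371 and 352 CPM in kEpiSC and 342 to 383 CPM in EpiSC, Dnmt3b had 1083 and 1056 CPM in kEpiSC and 373 to 1450 CPM in EpiSC (called without EpiSC replicate 1, edgeR adjusted p 0.045), and Tet3 had 34.5 and 28.3 CPM in kEpiSC and 23.2 to 33.9 CPM in EpiSC. Germline genes that depend on promoter methylation gave no call among 12 tested, of which 4 had 0 counts in both primed groups.

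By the criteria for the largest changes (called, libraries that do not overlap, at least 5 CPM on average in the higher group, no clone-type symbol), 99 genes qualified as higher and 31 as lower, of which the 12 with the largest fold change each way were taken and 11 higher and 12 lower are described. Gpr37, an orphan G protein-coupled receptor gene, had 51.3 and 57.6 CPM in kEpiSC, against 0, 0.362, 1.37 and 0.721 CPM in EpiSC (log2 fold change 6.34 ± 0.56, edgeR adjusted p 6.2e-05). Unc13d, which primes secretory granules for release, had 107 and 102 CPM in kEpiSC, against 10.2, 7.60, 7.85 and 9.74 CPM in EpiSC (log2 fold change 3.56 ± 0.29, edgeR adjusted p 4.9e-05). Both were called in each of the 6 reduced fits and against EpiSC replicate 1 only.

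The remaining genes with the largest increases were of several kinds. Ccn2, also known as Ctgf, encodes a matrix protein induced by YAP and TGF-beta, and had 193 and 204 CPM in kEpiSC, against 21.9, 2.17, 4.44 and 5.41 CPM in EpiSC (log2 fold change 4.63 ± 0.92, edgeR adjusted p 0.028, called in 1 reduced fit). Ankrd37, a target of the hypoxia factor HIF-1, had 45.0 and 65.4 CPM in kEpiSC, against 3.72, 3.26, 8.54 and 1.80 CPM in EpiSC (log2 fold change 3.65 ± 0.61, edgeR adjusted p 0.0096). Cdh9, a cadherin, had 10.2 and 11.7 CPM in kEpiSC and at most 1.09 CPM in EpiSC, and Klhl14 had 5.30 and 14.7 CPM in kEpiSC and at most 1.08 CPM in EpiSC, a call that each of the 6 reduced fits lost. Plac9b had 5.17 and 5.16 CPM in kEpiSC and 0 counts in all 4 EpiSC libraries, at least 18.3-fold higher with 3 counts set over the EpiSC group. Teddm1b had 207 counts in kEpiSC and 3 in EpiSC, a ratio of 23.5 per count sequenced with a 95% exact interval of 7.93 to 115 for counting error only.

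Trim12a and Kdm5d were also among these increases. Trim12a, of the antiviral TRIM family, had 27.7 and 24.5 CPM in kEpiSC, against 1.40, 0.724, 0.341 and 0 CPM in EpiSC (log2 fold change 5.46 ± 0.61, edgeR adjusted p 0.00055). It has close relatives, so that reads may be divided among copies. Its neighbour Trim12c had 33.7 and 36.2 CPM in kEpiSC and 7.91 to 48.5 CPM in EpiSC. Plac9b likewise has a near-identical copy in the mouse genome, and its values are uncertain for the same reason.

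Genes with the largest decreases included neuronal and membrane proteins. Nefm, a neurofilament subunit, had 3.83 and 1.81 CPM in kEpiSC, against 34.9, 82.9, 101 and 92.3 CPM in EpiSC (log2 fold change -4.78 ± 0.61, edgeR adjusted p 0.0017). Zfp775, a zinc finger gene, had 0.575 and 1.03 CPM in kEpiSC, against 15.4, 12.3, 7.85 and 7.94 CPM in EpiSC (log2 fold change -3.72 ± 0.47, edgeR adjusted p 0.0017). Both were called in all 6 reduced fits and against EpiSC replicate 1 only.

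Fzd10, a WNT receptor, had 4.34 and 2.71 CPM in kEpiSC, against 29.8, 22.4, 18.1 and 40.8 CPM in EpiSC, and ESC held 37.4 to 128 CPM. Cpt1a, which admits long fatty acids to mitochondria, had 0.383 and 0.968 CPM in kEpiSC, against 11.2, 2.89, 3.76 and 6.13 CPM in EpiSC, and at least 108 CPM in ESC. For both the kEpiSC libraries were farther from ESC than the EpiSC libraries were. Their log2 fold changes were -2.97 ± 0.53 and -3.06 ± 0.60, with edgeR adjusted p values of 0.016 and 0.024. Ets1, an ETS family factor, had 5.30 and 5.29 CPM in kEpiSC and 11.2 to 39.0 CPM in EpiSC, Gad2 had 0.383 and 0.323 CPM in kEpiSC and 3.07 to 8.66 CPM in EpiSC, and Cnpy1 had 5.75 and 4.65 CPM in kEpiSC and 15.7 to 74.7 CPM in EpiSC. The adhesion gene Nrcam, at 18.7 and 16.8 CPM in kEpiSC and 53.6 to 84.7 CPM in EpiSC, lost its call in all 6 reduced fits. Rtl8b and Rsc1a1 were also called lower, at fold changes of -3.97 and -4.03 on the log2 scale. Rtl8b has close copies, and Rsc1a1 lies within the locus of another gene, so both counts may be shared.

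**Figure D3:**
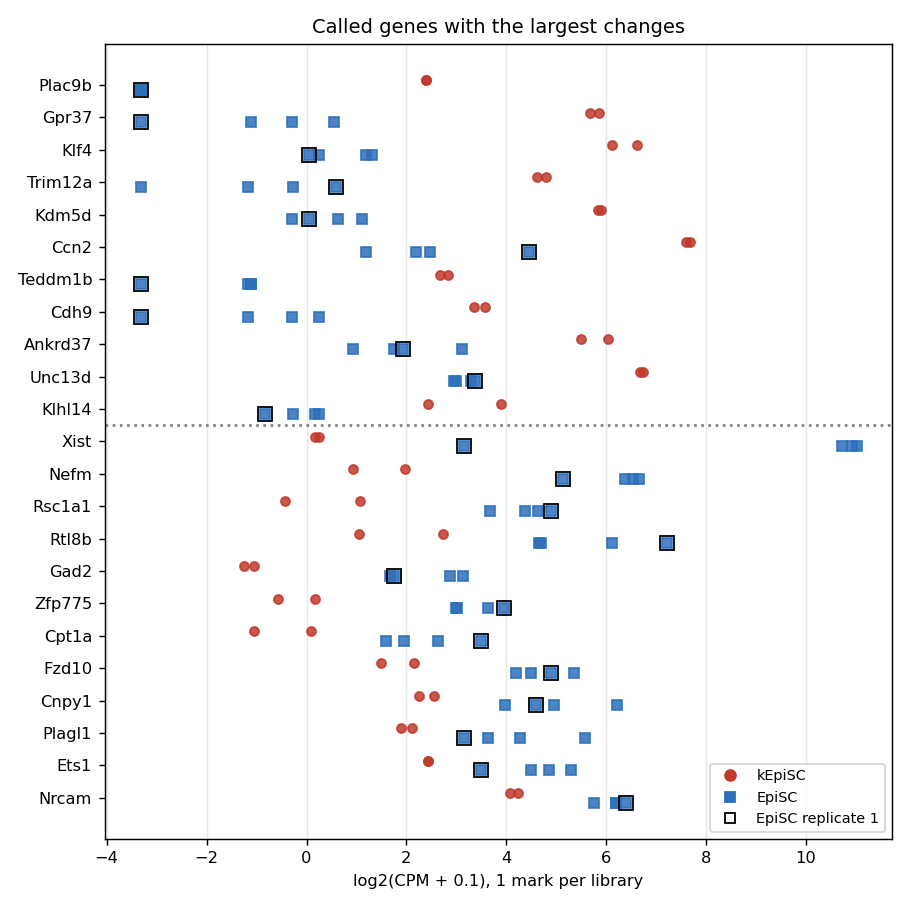
Called genes with the largest increases (11, above the dotted line) and decreases (12, below it), as log2(CPM + 0.1), with circles for kEpiSC libraries, squares for EpiSC libraries and a black frame around EpiSC replicate 1. Circles and squares do not overlap for any gene, as the rule requires, and for Xist replicate 1 (8.84 CPM) lies apart from the other EpiSC libraries (1682 to 2067 CPM).

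Trim12a separated kEpiSC and the rest of the series from EpiSC and ESC alike. On the scale of all 38 libraries, it ran from 6.85 to 58.0 CPM in the 27 libraries of the other 15 groups and reached at most 4.48 CPM in the 9 libraries of EpiSC and ESC. Those 27 include cells of a different origin, EpiSC-like cells labelled as induced from wild type ESC, at 38.2 CPM. That library held 49.2 CPM of Klf4, beside 71.6 and 101.5 CPM in kEpiSC and 0.921 to 2.39 CPM in EpiSC, so it cannot be taken as a sample with little Klf4. Gpr37 differed: it was at most 19.01 CPM in the 27, with a median of 1.04 CPM, and 0.117 CPM or less in kiPSC. Gm10221, a processed pseudogene named here after its values were seen, had 0 counts in kEpiSC and in the 27, and 23.3 to 65.5 CPM in the 9 EpiSC and ESC libraries. It was at least 407-fold lower in kEpiSC than in EpiSC with 3 counts set over the kEpiSC group. As no library without the transgene shares the derivation of kEpiSC as a matched control, the transgene, the line and the batch cannot be told apart in any of these differences.

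Xist and the Y-linked genes showed that the libraries were not matched. Xist, the RNA that coats the inactive X chromosome of female cells, had 1.09 and 1.03 CPM in kEpiSC, against 8.84, 1682, 1947 and 2067 CPM in EpiSC. The Y-linked gene Eif2s3y had 59.6 and 66.1 CPM in kEpiSC, against 39.5 CPM in EpiSC replicate 1 and at most 0.724 CPM in the other 3. Ddx3y (93.9 and 103 CPM in kEpiSC, 34.9 CPM in EpiSC replicate 1 and at most 2.52 CPM in the others) and Uty (37.995 and 36.4 CPM in kEpiSC, 25.6 CPM in replicate 1 and at most 0.724 CPM in the others) had the same order. kEpiSC thus resembled EpiSC replicate 1 in these genes, with Y-linked RNA as in male cells. Replicates 2, 3 and 4 were the reverse, with Xist as in female cells. Sex read from these genes thus differed between kEpiSC and replicates 2, 3 and 4, and its part in the other differences was not tested.

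Xist was called, with a log2 fold change of -10.37 ± 1.82 and an edgeR adjusted p of 0.014, but not against EpiSC replicate 1 only (-2.99, edgeR adjusted p 0.14). Of 6 Y-linked genes tested 1 was called higher, beside 0.941% of all genes, and 4 were without replicate 1, beside 1.75%. The call was Kdm5d, a histone H3K4 demethylase gene on the Y chromosome, with 59.4 and 57.1 CPM in kEpiSC, against 0.931, 1.45, 2.05 and 0.721 CPM in EpiSC (log2 fold change 5.45 ± 0.61, edgeR adjusted p 0.00055). It was low in EpiSC replicate 1 too, in which Eif2s3y, Ddx3y and Uty were present. Kdm5d was 0.679 to 3.63 CPM in ESC and 5.03 and 1.22 CPM in kiPSC. On the scale of all 38 libraries, it was also high in the libraries titled kiPSC-iCD1, taken over days 1 to 3 in iCD1 medium. These held 51.7 to 78.3 CPM without and 48.5 to 72.6 CPM with a JNK inhibitor. Zfy1 and Uba1y had 19 and 15 counts in kEpiSC and 0 in EpiSC, at least 2.16-fold and 1.70-fold higher, and were not called. Eif2s3x, an X-linked gene that escapes inactivation, fell to 362 and 343 CPM in kEpiSC, against 462, 609, 530 and 559 CPM in EpiSC (log2 fold change -0.61 ± 0.14, edgeR adjusted p 0.047, called in 1 reduced fit). The median over 482 X-linked genes was -0.10 on the log2 scale, and over the autosomes medians ran from -0.07 on chromosome 14 to 0.09 on chromosome 11.

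**Figure D4:**
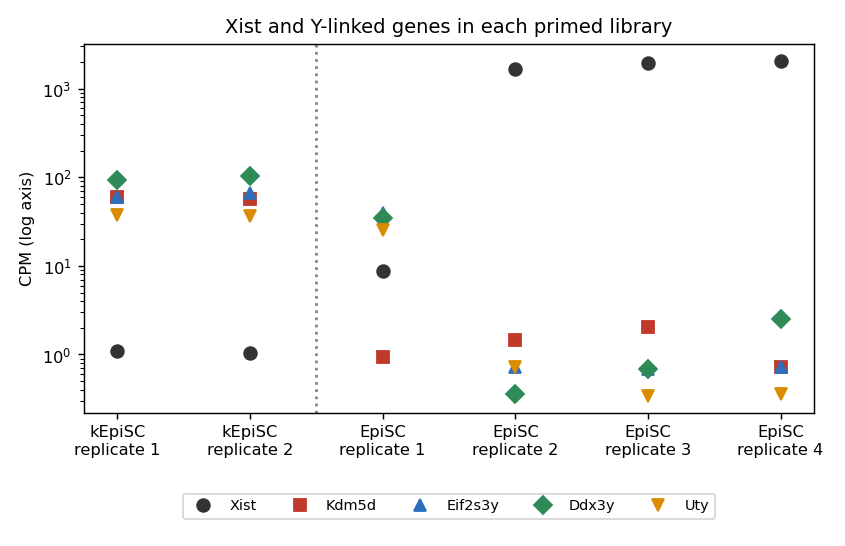
Xist and 4 Y-linked genes in CPM on a log axis, for the 2 kEpiSC libraries (left of the dotted line) and the 4 EpiSC libraries. kEpiSC and EpiSC replicate 1 have little Xist and express Eif2s3y, Ddx3y and Uty. EpiSC replicates 2 to 4 have 1682 to 2067 CPM of Xist, and of the libraries shown only kEpiSC has high Kdm5d.

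Lists that were not about pluripotency held scattered calls. Over all genes tested, 0.941% were called higher and 0.323% lower. The interferon list had 2 calls among 17 tested: Trim12a, and Ifitm3, a membrane protein that blocks virus entry, with 57.2 and 56.4 CPM in kEpiSC, against 16.8, 15.9, 13.3 and 20.9 CPM in EpiSC (log2 fold change 1.76 ± 0.26, edgeR adjusted p 0.0039). Genes such as Isg15, Ifit1, Irf7 and Rsad2 did not pass the filter on low counts. Among 12 genes of MHC class I presentation H2-T23 was called, with 24.7 and 25.9 CPM in kEpiSC and 4.69 to 11.6 CPM in EpiSC, a member of a family whose copies can share reads. H2-K1 had 136 and 159 CPM in kEpiSC and 67.5 to 119 CPM in EpiSC and was not called. Of 32 imprinted genes 1 rose and 1 fell. Phlda2, a growth inhibitor of the placenta, had 99.7 and 91.5 CPM in kEpiSC, against 4.65, 27.1, 17.4 and 5.05 CPM in EpiSC (edgeR adjusted p 0.038), and Plagl1, a zinc finger gene, had 4.21 and 3.61 CPM in kEpiSC, against 8.84, 19.2, 12.3 and 47.3 CPM in EpiSC (edgeR adjusted p 0.033). Each was called in 2 or 3 of the 6 reduced fits.

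Members of 3 lists were mostly positive with few or no calls. Of all genes with counts in the primed groups, 48.8% were positive, and 0.941% of all genes tested were called higher. All 20 genes of G2 and mitosis were positive, with a median of 0.46, and for 17 of them the libraries did not overlap (18% of all genes tested in this direction). Aurkb, a kinase of chromosome segregation, was the single call at 196 and 237 CPM in kEpiSC, against 108, 134, 157 and 118 CPM in EpiSC (log2 fold change 0.75 ± 0.17, edgeR adjusted p 0.048). The 18 genes of DNA replication had no call and a median of 0.00. Of 24 glycolysis and hypoxia genes 22 were positive, with a median of 0.62, and Ankrd37 was the call. The libraries did not overlap for 16 of the 24 in the higher direction. Their median was 0.46 without EpiSC replicate 1 and 1.27 with it as the only EpiSC library. Egln3, the HIF prolyl hydroxylase, had 237 and 282 CPM in kEpiSC and 29.6 to 87.1 CPM in EpiSC at an edgeR adjusted p of 0.070. In the epithelial list 14 of 16 genes were positive, with a median of 0.56 and no call (2 higher without EpiSC replicate 1). The libraries did not overlap for 6 of the 16 in the higher direction. Epcam, not called, had 405 and 448 CPM in kEpiSC and 163 to 288 CPM in EpiSC. Genes of 1 list vary together, and such counts are a description of these 6 libraries.

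Markers of other cell types moved with EpiSC replicate 1. The fibroblast and feeder list had no call among 15 tested and a median of -1.67, which became 1.41 with replicate 1 as the only EpiSC library and -2.02 without it. The summed level of its 17 genes was 254 and 197 CPM in kEpiSC, against 91.7 CPM in EpiSC replicate 1 and 305 to 782 CPM in the other 3, and Col3a1, a fibroblast collagen, was at 0 in replicate 1. Mesendoderm genes summed to 182 and 135 CPM in kEpiSC, against 1420 CPM in EpiSC replicate 1 and 70.6 to 172 CPM in the other 3, with no call among 14 and a median of -0.71. The median became 0.48 without replicate 1 (no call) and -2.18 with it as the only EpiSC library, where 4 were called lower. T (Brachyury), the marker of the primitive streak, had 46.4 and 37.0 CPM in kEpiSC, against 680 CPM in EpiSC replicate 1 and 13.4 to 56.3 CPM in the other 3. The part of these cells in the differences was not tested. Nefm, called lower, was the single call among 12 neural genes, beside 0.323% of all genes tested called lower. No call was made among tested genes of the mesenchymal (10), trophoblast (6), primitive endoderm (9), blood and endothelium (3), two-cell-like (5), p53 (14), ATF4 (17), respiratory chain (22) and cholesterol synthesis (19) lists. Without EpiSC replicate 1, 2 mesenchymal genes were called lower and 2 p53 targets higher, and 1 ATF4 gene was lower.

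**Figure D5:**
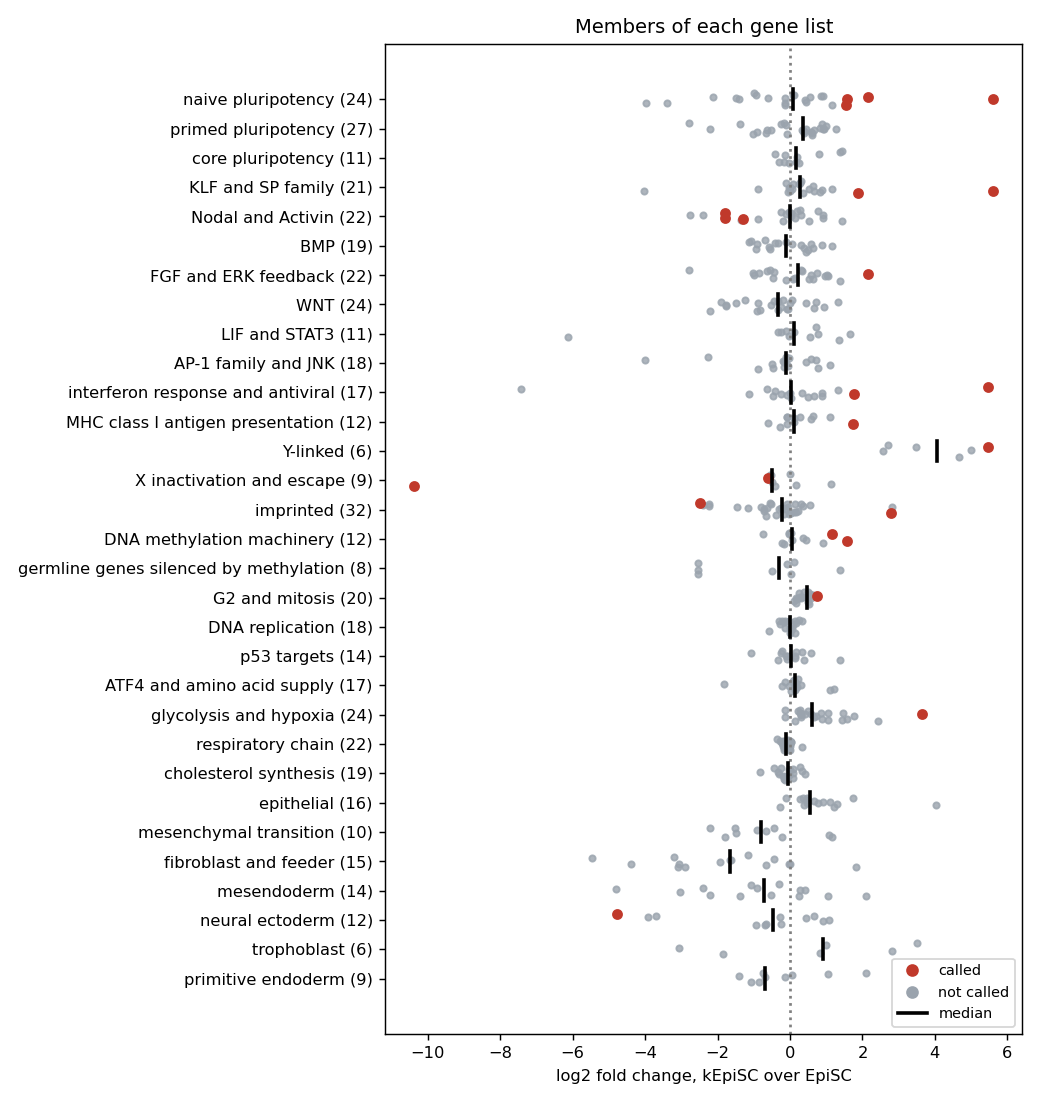
Log2 fold change, kEpiSC over EpiSC, of each list member with counts in either group, for the 31 lists with at least 5 such members (numbers in brackets). Red points are called genes, grey points are not called and black bars are medians, which lie between -1.67 (fibroblast and feeder) and 4.07 (Y-linked).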

How the data were processed

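RNA sequencing libraries of kEpiSC (2), EpiSC (4), ESC (5) and kiPSC (2) were taken from 38 in the series. Per the labels and methods, the authors aligned reads to mm10 with Bowtie2 and estimated gene levels with RSEM, for which no version was found. A passage on all sequencing data also describes removal of low-quality, non-unique and mitochondrial reads, without saying how far it applied to RNA. The deposited expected counts, estimated per gene by RSEM, were rounded and tested. The deposited TPM values, scaled by the authors for gene length, set the order of the Kruppel-like family, and the deposited FPKM values were not used. Expected counts were fitted with edgeR 4.0.16 (quasi-likelihood, TMM, filterByExpr with a minimum count of 10), with Benjamini-Hochberg adjustment over 13923 genes and a threshold of 0.05; CPM use TMM library sizes, and an SE is the log2 fold change divided by the root of F. Alternatives used DESeq2 1.42.0 and limma 3.58.1 among others. Named genes were set genes of the study's question, up to 6 called genes per list, and the 12 largest called changes each way with at least 5 CPM in the higher group, no overlap and a symbol that is not of a clone type. The members and the 33 lists were chosen with earlier results of these data known. Of the listed genes, 7 were not matched. The tests were checked on simulated data. 1 gene that met the rule is not reported here.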

Additional observations from a re-analysis of the deposited data

Results flagged for a closer look

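Of 52 genes examined over the 4 EpiSC libraries, 7 had 1 library far from the others by Dixon's criterion, and in each it was EpiSC replicate 1. This library had 6.98 CPM of Zfp42 (0 in the other 3), 74.9 CPM of Dppa5a (at most 0.362), 39.5 CPM of Eif2s3y (at most 0.724), 34.9 CPM of Ddx3y (at most 2.52), 25.6 CPM of Uty (at most 0.724) and 21.9 CPM of Ccn2 (at most 5.41). The other is Teddm1b at 0 CPM, against 0.341 to 0.362 CPM in the other 3, which is 0 counts against 1 count in each and so no more than counting error. The criterion's rate of about 1 in 20 by chance is for independent genes picked without the data. These genes were chosen with earlier results known, and Eif2s3y, Ddx3y and Uty are all Y-linked. The count of 7 therefore cannot be set against that rate.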

How the results depend on the processing

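The 176 calls became 599 under DESeq2, 1013 with all 38 libraries in one fit and 327 with EpiSC replicate 1 as the only EpiSC library, and leaving out 1 library at a time gave 37 to 333. Higher calls were 74.4% of all calls, against 53.4% under DESeq2, 64.4% in the fit of 38 libraries and 54.7% with EpiSC replicate 1 only. With kEpiSC thinned to the EpiSC depth 119 genes were called. Klf4 kept its direction and call in every alternative run, against EpiSC and against ESC (-0.91 under limma on TPM, beside -1.56). Direction turned for Zfp42 under limma (0.46), for Pou5f1 with EpiSC replicate 1 only (-0.18), and when single libraries were left out for Klf5 (-0.15 to 0.28), Zfp42 (-0.79 to 6.15, the last a fitted value over 0 counts and no estimate of size) and Dppa5a (-4.42 to 3.05). Of 36 other named genes called, 26 lost the call without kEpiSC replicate 2, 21 without kEpiSC replicate 1, 20 with EpiSC replicate 1 only, 13 with only the compared groups fitted (and 13 without EpiSC replicate 2 or 4), 11 with thinned counts, 10 under limma, and 9 or fewer in each other alternative. The fit of only the compared groups gave 186 calls, 108 of them among the 176. The correlation of deviations was 0.04 and 0.05 for libraries with equal replicate numbers. With 2 kEpiSC libraries their deviations mirror each other, so these values cannot show whether the numbers pair the libraries. The replicate block gave 252 calls, 127 of them among the 176. The causes were not tested. At 0.5 to 2 CPM the median SE was 0.80, so changes there were called from 2.47 on the log2 scale.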
